A study of Homo sapiens with 12 samples.

Results

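The transcripts of 10 enzymes of glycolysis are described here, and their peaks were taken by gene name alone: HK2, GPI, PFKL, ALDOA, TPI1, GAPDH, PGK1, ENO1, PKM and LDHA. RNA immunoprecipitation followed by sequencing (RIP-seq), which pulls down a protein with an antibody and sequences the RNA that comes with it, gave 6 peak lists in HepG2 cells, a line established from a human liver cancer. Of the 101848 peaks in the 6 lists, 98 were named for these enzymes, and 9 of the 10 genes carried at least 1 peak, LDHA being the exception. The lists together named 10830 genes.

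The RIP was run on METTL16, an RNA methyltransferase, and on eIF3a and eIF3b, which are subunits of the translation initiation factor eIF3, with 2 replicates of each. Per the study's methods the cells stably overexpressed the Flag-tagged protein (METTL16, eIF3a or eIF3b) and were crosslinked with ultraviolet light. The lists thus describe cells with overexpression, and no drug treatment or time course was part of the design. By the labels, METTL16 and eIF3b were pulled down with a Flag antibody and eIF3a with an antibody raised against that protein, whereas the deposited lists carry the word flag for all 3 proteins. The study's methods name both a Flag and an eIF3a antibody for the RIP, as the labels do. On that reading, the antibody cannot be told apart from the protein when eIF3a is compared with the other two. An antibody against eIF3a is also not limited to the tagged protein. Each RIP sample had an input sample of RNA taken before the pull-down, and a peak is a stretch of exon in which RIP exceeded input. The fold enrichment is that ratio.

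Glycolysis splits glucose into pyruvate, which lactate dehydrogenase can reduce to lactate. Its early steps consume ATP, at hexokinase and phosphofructokinase, and its late steps regain ATP, at phosphoglycerate kinase and pyruvate kinase. Tumor cells commonly run the pathway fast in the presence of oxygen, and adult hepatocytes use partly different isozymes from those of most tumors. A RIP peak marks enrichment of RNA over input and says nothing of how abundant a transcript or its enzyme was.

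For 6 of the enzymes, the longest coding stretch that lay under a peak in the largest number of lists is printed here. PFKL and PKM had other stretches in as many lists, which are not shown. In all, PFKL had 424 coding bases under peaks in 4 lists, and PKM 211 in 5. At 1 unprinted PFKL stretch, chr21:44326159-44326243, the 4 lists were both of METTL16, eIF3a replicate 1 and eIF3b replicate 1. The printed stretches are read from GRCh38 on the transcript strand, 5′ to 3′. The bases under peaks are in capitals, up to 15 flanking coding bases are in lower case, and the coordinates are those of the capitals. At most 150 bases are in capitals, which shortens PFKL alone. The stretch of HK2 lay under a peak in 4 lists, both of METTL16 and both of eIF3b, in exon 12 at chr2:74882216-74882239 and exon 13 at chr2:74885494-74885589, plus strand.
HK2: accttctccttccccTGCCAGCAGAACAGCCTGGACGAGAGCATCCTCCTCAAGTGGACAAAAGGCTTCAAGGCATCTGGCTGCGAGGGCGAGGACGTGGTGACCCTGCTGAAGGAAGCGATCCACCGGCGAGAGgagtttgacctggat
The stretch of PFKL lay under a peak in the same 4 lists, in exon 10 at chr21:44318480-44318595 and exon 11 at chr21:44319351-44319415, plus strand. Its capitals stop early, at 44319384, so the lower-case bases after them are under the same peaks.
PFKL: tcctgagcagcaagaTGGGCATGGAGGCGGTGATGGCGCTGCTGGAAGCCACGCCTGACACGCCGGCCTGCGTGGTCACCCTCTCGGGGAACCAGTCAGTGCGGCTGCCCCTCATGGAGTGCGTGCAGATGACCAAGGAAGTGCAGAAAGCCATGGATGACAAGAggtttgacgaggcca
The stretch of TPI1 lay under a peak in 3 lists, both of METTL16 and replicate 1 of eIF3b, in exon 3 at chr12:6869100-6869183 and exon 4 at chr12:6869258-6869323, plus strand.
TPI1: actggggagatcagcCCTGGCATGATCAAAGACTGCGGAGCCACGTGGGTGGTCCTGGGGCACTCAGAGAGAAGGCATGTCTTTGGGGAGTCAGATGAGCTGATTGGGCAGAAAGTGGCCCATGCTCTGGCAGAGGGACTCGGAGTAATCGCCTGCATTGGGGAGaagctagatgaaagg
ENO1 was covered by the same 3 lists as TPI1, in exon 9 at chr1:8863922-8864012, minus strand.
ENO1: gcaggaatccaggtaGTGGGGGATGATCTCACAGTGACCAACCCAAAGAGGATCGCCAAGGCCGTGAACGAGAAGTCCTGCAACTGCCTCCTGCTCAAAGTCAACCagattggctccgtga
The stretch of PKM was covered in 5 lists, every list but replicate 2 of eIF3a, in exon 5 at chr15:72209673-72209693 and exon 6 at chr15:72208792-72208891, minus strand.
PKM: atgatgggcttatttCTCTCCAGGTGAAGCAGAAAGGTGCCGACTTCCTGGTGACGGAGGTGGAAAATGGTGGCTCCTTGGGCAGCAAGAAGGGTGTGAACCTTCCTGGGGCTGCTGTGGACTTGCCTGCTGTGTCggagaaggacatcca
GAPDH was covered at most in 2 lists at the same bases, replicate 1 of eIF3a and replicate 2 of eIF3b. Their coding part in exon 9, chr12:6538136-6538170 on the plus strand, ends with the stop codon.
GAPDH: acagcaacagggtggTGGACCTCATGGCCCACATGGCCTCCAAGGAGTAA
No coding base of GPI lay under a peak in more than 1 list.

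METTL16 replicate 1 had peaks on 8 of the 10 enzymes, against 28.9% of all 20020 protein coding genes. METTL16 replicate 2 had peaks on 9, against a background of 31.4%. eIF3a replicate 1 had peaks on 6, against 40.5%, and eIF3a replicate 2 on 2, against 25.9%. eIF3b replicate 1 had peaks on 8, against 40.0%, and eIF3b replicate 2 on 6, against 37.5%. In any list, 9 of the 10 enzymes carried a peak, against 53.6% of protein coding genes. Against all protein coding genes, whether or not expressed in HepG2 cells, only eIF3a replicate 2 had a share of the enzymes that did not exceed its background. Of protein coding genes, 10725 had a peak in any list. METTL16 had peaks on 5793 and 6290 of these, eIF3a on 8099 and 5183, and eIF3b on 8002 and 7514. Against that set, the enzymes were not in excess in eIF3a replicate 1 or eIF3b replicate 2 either.

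With a gene called bound when both replicates of a protein carried a peak on it, METTL16 bound 8 enzymes, all but GAPDH and LDHA, where the background was 22.9%. eIF3a bound 2, HK2 and GPI, against a background of 22.8%. eIF3b bound 5, HK2, GPI, PFKL, PGK1 and PKM, against a background of 32.2%. Among the 13259 genes whose canonical transcripts fell within the enzymes' range of length, 1285 to 5626 bases, the backgrounds were 23.9%, 21.9% and 33.1% for METTL16, eIF3a and eIF3b. The eIF3a count rested on replicate 2, since replicate 1 alone had peaks on 6 of the enzymes, and replicate 1 of eIF3b alone had peaks on 8. The enzymes were chosen with earlier results of these data known, so the counts are given without a test.

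The 9 enzymes with peaks fell into 4 sets by the lists that carried them. HK2 and GPI had a peak in all 6 lists, which was true of 2730 genes, or 25.2% of the genes named in any list. PFKL, PGK1 and PKM had a peak in every list but eIF3a replicate 2, a set of 1009 genes. ALDOA, TPI1 and ENO1 had a peak in both METTL16 lists and in eIF3b replicate 1, a set of 168 genes or 1.55%. GAPDH had a peak in METTL16 replicate 2, eIF3a replicate 1 and eIF3b replicate 2, a set of 101 genes.

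**Figure D1:**
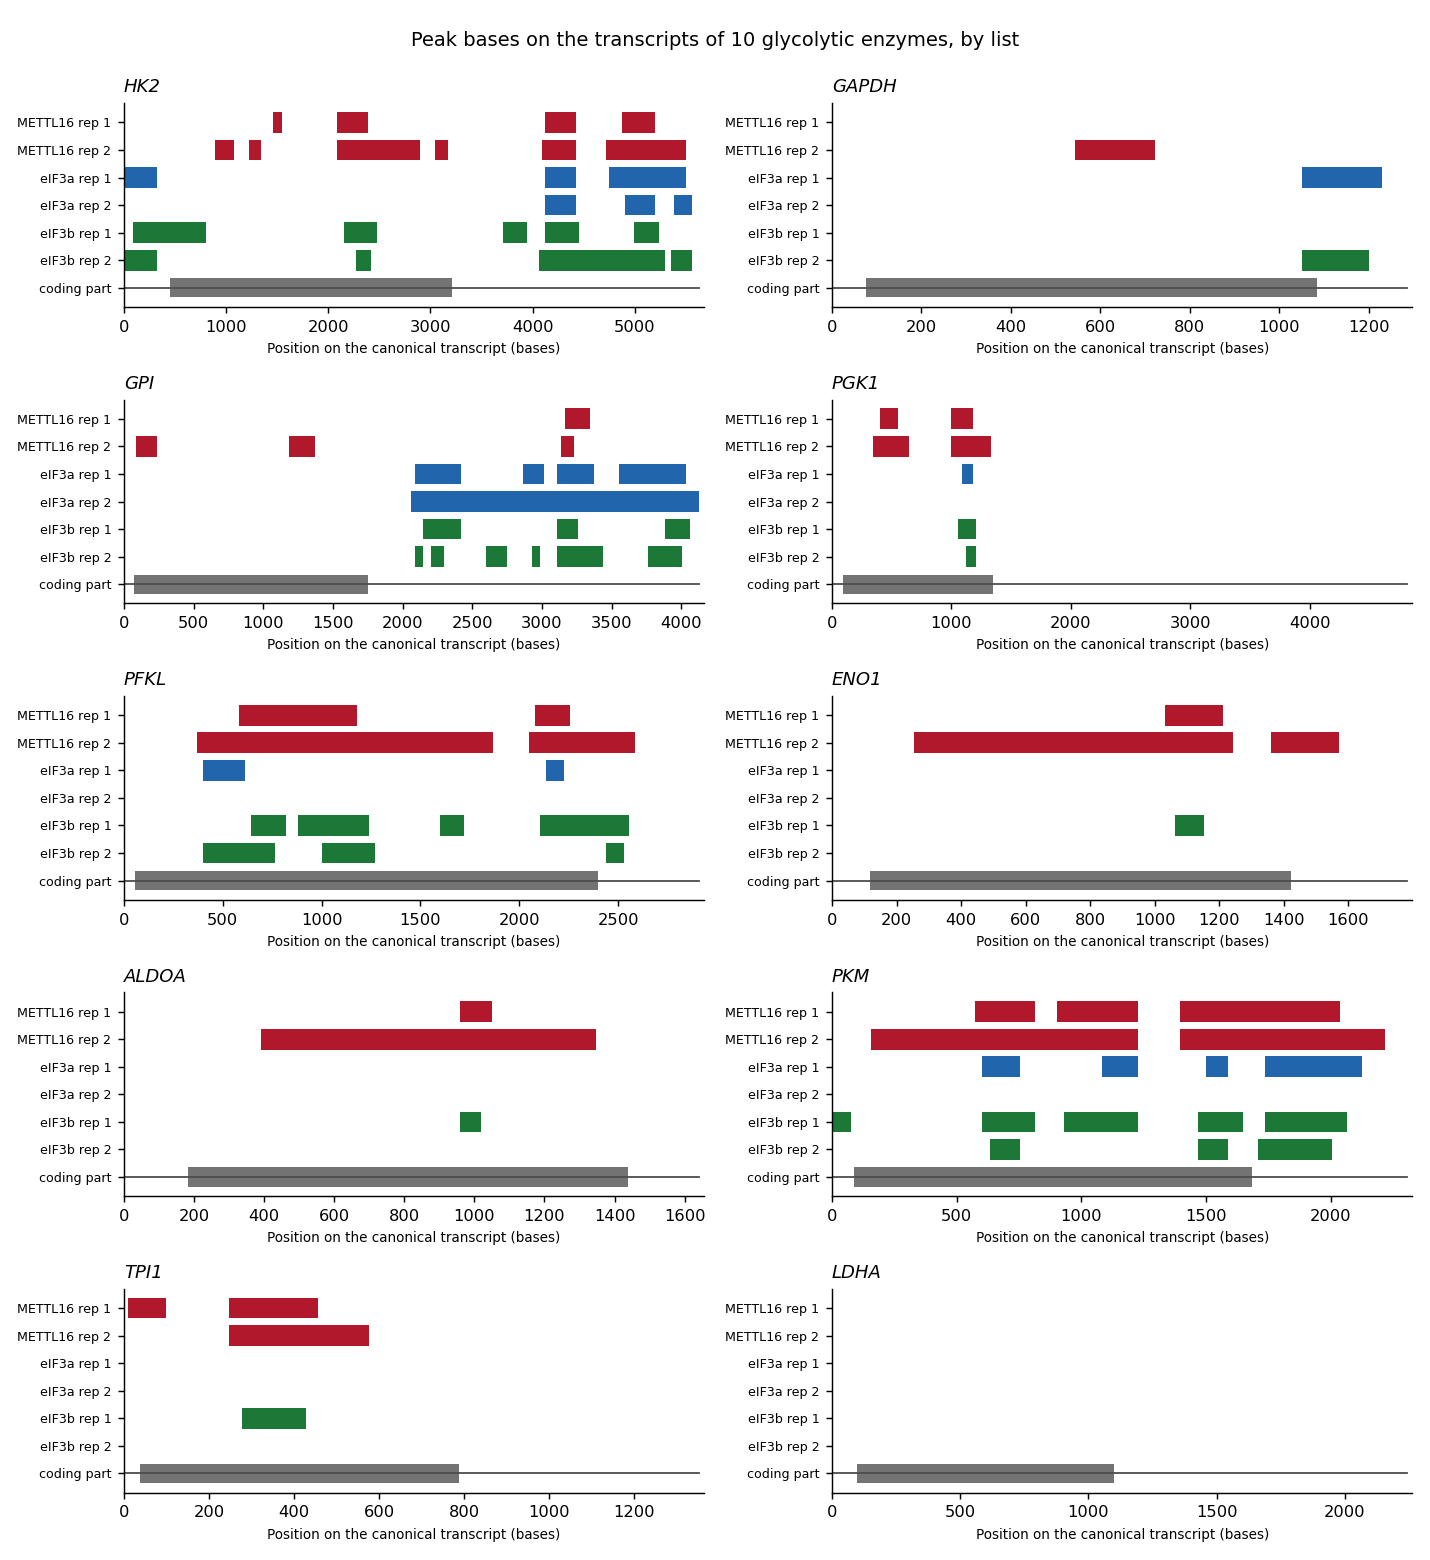
Bases under peaks along the canonical transcript of each enzyme, with the position in bases from the transcript start on the horizontal axis, 1 row per list, and the coding sequence as a grey box on the lowest row. HK2 and GPI carried peaks beyond the coding box in all 6 lists, PGK1 carried all of its peaks within it, and LDHA carried none. The gap in the PKM rows is an exon that the caller's gene model left out.

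Hexokinase 2, coded by HK2 (chr2:74834127-74893359, 18 exons), phosphorylates glucose at the entry of the pathway and is a form typical of tumors. It carried 27 of the 98 peaks. METTL16 replicates 1 and 2 covered 1020 and 2340 bases, eIF3a 1440 and 780, and eIF3b 1950 and 1918. On canonical exons alone, eIF3a covered 1373 and 780 bases and eIF3b 1859 and 1912, with METTL16 unchanged. The highest fold enrichment on HK2 was 6.47 and 21.8 in the METTL16 lists, 5.46 and 2.83 in the eIF3a lists, and 7.45 and 5.27 in the eIF3b lists. The 5.46 came from a peak of 61 bases upstream of the HK2 exons, and on canonical exons the value was 3.08. The METTL16 and eIF3a lists overlapped in covered bases, while both eIF3b lists lay above both eIF3a lists.

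The 3′ UTR of HK2, 2418 bases long, was where all 6 lists met. A 300-base peak at chr2:74891858-74892157 had the same start and end in METTL16 replicate 1 and in both eIF3a lists, and peaks of the other 3 lists contained it. A further 210 bases at chr2:74892726-74892935 also lay under a peak in all 6 lists, which made 510 bases in all, every base of them in the 3′ UTR. Peaks with matching ends are less exact than they look, because 94.9% of the enzymes' peaks, and 89.0% of all peaks, had an exonic width within 1 base of a multiple of 30.

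The letters ACAGAGA, known as the core motif of METTL16 methylation in U6 RNA, stood on the transcript strand in 6 of the 98 peaks, 1 in each list. All 6 were peaks over the same place, 1091 bases into the HK2 3′ UTR, shown here in 27 bases at chr2:74892022-74892048 on the plus strand with the motif in capitals.
HK2 3′ UTR: gaaggcagggACAGAGAtggaggccga
The motif was in 3.31% and 3.27% of all METTL16 peaks, 3.90% and 5.36% of all eIF3a peaks, and 4.07% and 4.49% of all eIF3b peaks. On HK2 it was under peaks of all 3 proteins, and in no peak of another enzyme.

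In the coding sequence of HK2, METTL16 covered 390 and 1231 bases, eIF3a 0 and 0, and eIF3b 679 and 150. The eIF3a lists had no coding base of HK2 under a peak, and the METTL16 and eIF3b ranges overlapped. The 5′ UTR was covered in eIF3a replicate 1 and both eIF3b lists and in neither METTL16 list. eIF3a replicate 1 and eIF3b replicate 2 shared the same 330-base peak at chr2:74834121-74834450, with fold enrichments of 1.83 and 2.03. The eIF3b replicate 1 peak there ran over the start codon, for 719 bases over 3 exons, at a fold of 2.50.

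Glucose-6-phosphate isomerase, coded by GPI (chr19:34359480-34402413, 18 exons), turns glucose 6-phosphate into fructose 6-phosphate. METTL16 covered 181 and 423 bases, eIF3a 1233 and 2069, and eIF3b 603 and 936. On GPI both eIF3a lists were thus above both eIF3b lists, and both of these above both METTL16 lists. The reverse order was seen on PFKL, ALDOA, TPI1, PGK1, ENO1 and PKM only by the mean of the 2 lists. On none of these did the lists of all 3 proteins separate. All peak bases in the eIF3a and eIF3b lists were in the 3′ UTR, and METTL16 reached the coding sequence, for 332 bases, in replicate 2 only. The highest fold was 2.90 and 2.38 for METTL16, 3.94 and 7.18 for eIF3a, and 2.06 and 3.65 for eIF3b. The eIF3a replicate 2 peak ran 2069 bases to the end of the transcript and was the widest of the 98. Only 61 bases, at chr19:34401454-34401514, were under a peak in all 6 lists. The METTL16 replicate 2 peak there was the weakest of the 98 by p within its own list, stronger than 4.45% of that list's peaks.

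Liver phosphofructokinase, coded by PFKL (chr21:44300051-44327376, 22 exons), catalyzes the committed step. METTL16 covered 781 and 2037 bases, eIF3a 301 and 0, and eIF3b 1112 and 721. Both METTL16 lists and both eIF3b lists were above both eIF3a lists, and METTL16 and eIF3b overlapped. The highest fold was 4.06 and 3.97 for METTL16, 1.40 for eIF3a replicate 1, and 2.00 and 1.91 for eIF3b. In METTL16 replicate 2 a single peak of 1497 bases crossed 14 exons. The stop codon was under a peak in METTL16 replicate 2 and eIF3b replicate 1.

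Aldolase A, coded by ALDOA (chr16:30064164-30070457, 10 exons), splits fructose 1,6-bisphosphate, and triosephosphate isomerase, coded by TPI1 (chr12:6867119-6870948, 7 exons), interconverts its products. On ALDOA, METTL16 covered 91 and 956 bases, eIF3a 0 and 0, and eIF3b 182 and 0, of which 61 and 0 were on canonical exons. On TPI1, METTL16 covered 300 and 329 bases, eIF3a 0 and 0, and eIF3b 150 and 0. TPI1 had the METTL16 replicates closest in covered bases of the 8 enzymes that METTL16 bound, and a Jaccard index (shared over combined bases) of 0.501 between them, against 0.0952 for ALDOA. The highest METTL16 fold was 1.16 and 1.84 on ALDOA and 1.78 and 1.57 on TPI1. METTL16 replicate 1 had a 90-base peak over the TPI1 start codon that replicate 2 did not have. Exons of an annotated readthrough gene, ENSG00000285043, lie over the ALDOA peaks on the same strand.

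Glyceraldehyde-3-phosphate dehydrogenase, coded by GAPDH (chr12:6534512-6538374, 9 exons), makes the NADH of the pathway, and its transcript is a common reference for expression. METTL16 covered 0 and 180 bases, eIF3a 180 and 0, and eIF3b 0 and 150. No protein therefore had GAPDH in both replicates. The METTL16 peak lay in exons 7 and 8 of the coding sequence and shared no base with the others, which lay over the stop codon and the 3′ UTR and shared a Jaccard index of 0.833. The folds were 1.40, 1.30 and 1.17 in METTL16 replicate 2, eIF3a replicate 1 and eIF3b replicate 2. An annotated gene on the opposite strand, ENSG00000269968, has an exon over the eIF3a and eIF3b peaks. GAPDH also has 65 annotated pseudogenes, the most of the 10. How the caller treated reads that map to several copies is not stated, and the part of such reads in the GAPDH peaks was not tested.

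Phosphoglycerate kinase, coded by PGK1 (chrX:77910739-78129295, 11 exons), regains ATP. METTL16 covered 332 and 630 bases, eIF3a 91 and 0, and eIF3b 151 and 91. Both METTL16 lists were above all 4 others. Every covered base was coding, although the annotated 3′ UTR of 3465 bases is the longest of the 10. The highest fold was 1.36 and 2.36 for METTL16, 1.17 for eIF3a replicate 1, and 1.25 and 1.19 for eIF3b.

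Alpha-enolase, coded by ENO1 (chr1:8861000-8879190, 12 exons), forms phosphoenolpyruvate. METTL16 covered 181 and 1290 bases, eIF3a 0 and 0, and eIF3b 91 and 0. Both METTL16 lists were again above the other 4, with a wide gap between the 2 replicates and a Jaccard index of 0.140 between them. Replicate 2 had a peak of 989 bases over 8 exons and another over the stop codon. On the exons of the canonical transcript, the highest fold was 1.38 and 2.20 for METTL16 and 1.18 for eIF3b replicate 1.

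Pyruvate kinase M, coded by PKM (chr15:72199029-72231819, 11 exons), regains ATP and yields pyruvate. METTL16 covered 1226 and 2061 bases, eIF3a 841 and 0, and eIF3b 1258 and 540. Both METTL16 lists were above both eIF3a lists and overlapped with eIF3b. On canonical exons alone METTL16 covered 1208 and 1894 bases and eIF3b 1091 and 540, without overlap. The METTL16 replicate 2 peak was a single stretch of 10 blocks with a fold of 5.24 and a log10 p of -437, and covered 82.2% of the canonical transcript. METTL16 replicate 1 reached 52.4%. Both METTL16 lists covered the stop codon, and the peaks of eIF3a replicate 1 and of eIF3b stopped on either side of it.

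PKM is spliced with either of a pair of alternative exons, which give the M1 and the M2 enzyme, and M2 is the form known from tumors. Peaks covered 18 and 167 of the 167 bases of the M1 exon (chr15:72203022-72203188) in the METTL16 lists, 2 and 0 in the eIF3a lists and 2 and 0 in the eIF3b lists. They covered 0 of the 167 bases of the M2 exon (chr15:72202454-72202620) in every list. The continuous METTL16 replicate 2 peak passed straight from the M1 exon to the exon after the M2 exon, so the gene model of the caller stepped over it, and nothing can be read about the M2 exon from these lists.

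Lactate dehydrogenase A, coded by LDHA (chr11:18394560-18408425, 8 exons), reduces pyruvate to lactate. No list had a peak named for LDHA, and no peak of another name overlapped its exons on its strand. Its transcript of 2241 bases was within the range of the others. A gene without a peak may be below the caller's threshold, and the lists give no depth or read counts with which to set a limit. LDHA has 6 annotated pseudogenes. No list had a peak named for a pseudogene of any of the 10 enzymes.

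**Figure D2:**
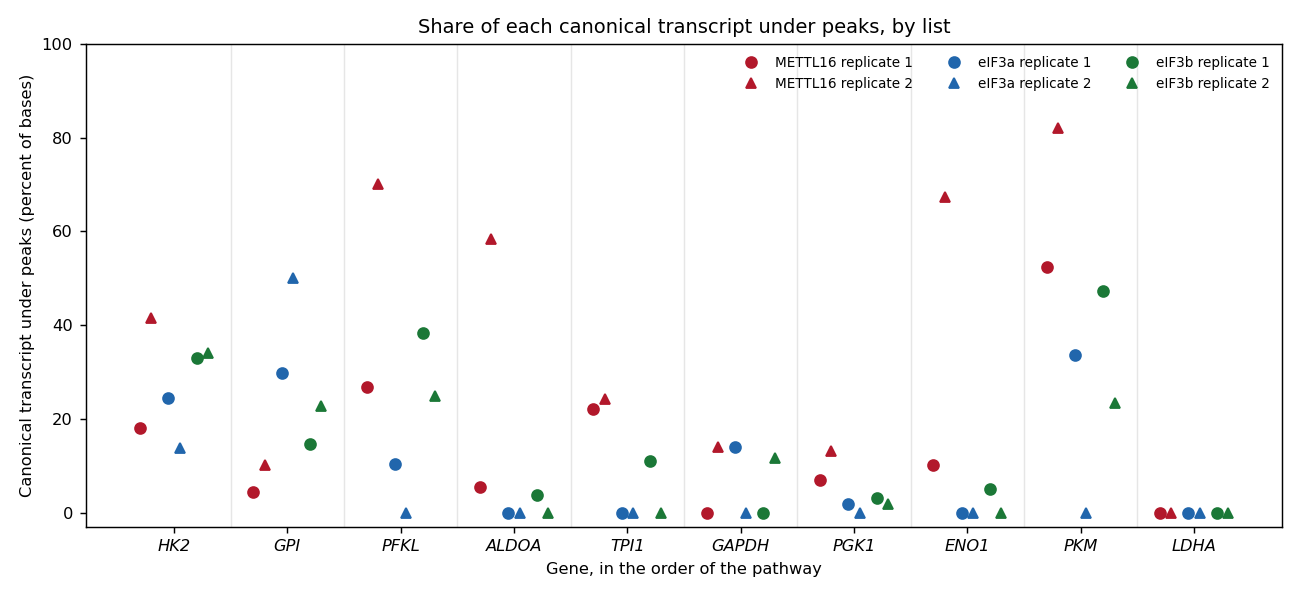
Percent of the canonical transcript under peaks (vertical axis) for each enzyme in the order of the pathway, with circles for replicate 1 and triangles for replicate 2. METTL16 replicate 2 reached 82.2% of PKM, 70.1% of PFKL, 67.3% of ENO1 and 58.3% of ALDOA, and eIF3a replicate 2 was at 0 on all but HK2 and GPI.

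The 3 proteins differed in which parts of the enzymes' transcripts they covered. Of the enzymes' peak bases on canonical transcripts, 70.9% and 79.3% were coding in the METTL16 lists, 20.6% and 0% in the eIF3a lists, and 54.1% and 26.4% in the eIF3b lists. Both METTL16 lists were above all 4 others, and eIF3a was below eIF3b. Over all genes the coding shares were 62.9% and 71.4% for METTL16, 60.7% and 63.5% for eIF3a, and 66.1% and 62.3% for eIF3b. The eIF3a replicate 2 share rests on HK2 and GPI alone. The mean was 75.1% ± 5.91 (SD, n = 2) for METTL16, 10.3% ± 14.6 (SD, n = 2) for eIF3a and 40.3% ± 19.6 (SD, n = 2) for eIF3b. The coding sequence made up 53.2% of the 10 transcripts by length.

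HK2 and GPI held most of the enzymes' 3′ UTR bases under peaks, 81.0% and 100% in the eIF3a lists, 74.3% and 82.5% in the eIF3b lists, and 69.7% and 57.9% in the METTL16 lists. The rest lay on PKM, GAPDH, PFKL and ENO1. Of the 34 peaks that lay wholly in a 3′ UTR, 30 were on these 2 genes, which carried 45 of the 98 peaks. Without them the coding share was 87.4% ± 0.764 (SD, n = 2) for METTL16, 60.4% for eIF3a replicate 1, undefined for eIF3a replicate 2, and 72.6% ± 8.76 (SD, n = 2) for eIF3b. The 3′ UTR still held 39.6% of the remaining bases in eIF3a replicate 1, 18.4% and 33.6% in the eIF3b lists, and 12.2% and 12.1% in the METTL16 lists. Leaving out these genes was chosen after their values had been seen. Of the 98 peaks, 56 held coding bases, 7 covered a stop codon and 2 a start codon.

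**Figure D3:**
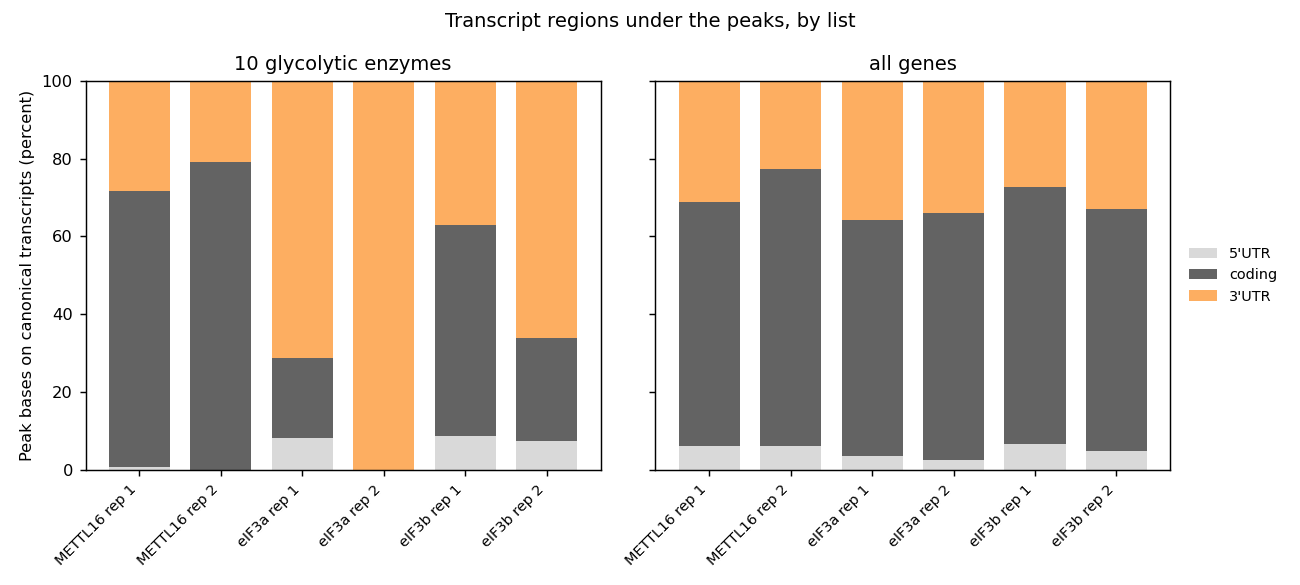
Stacked bars of the percent of peak bases in the 5′ UTR, coding sequence and 3′ UTR of canonical transcripts, by list, for the 10 enzymes on the left and for all genes on the right. For the enzymes the coding part fell from 70.9% and 79.3% in the METTL16 lists to 20.6% and 0% in the eIF3a lists, while over all genes it stayed between 60.7% and 71.4%.

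The peaks on the enzymes had low fold enrichments and small p-values for their lists. The median fold of the enzymes' peaks was 1.72 and 2.14 in the METTL16 lists against 3.09 and 3.40 over all peaks, 1.83 and 2.68 in the eIF3a lists against 2.98 and 2.73, and 1.88 and 1.77 in the eIF3b lists against 3.20 and 2.94. The median was below that of all peaks in each of the 6 lists, least so in eIF3a replicate 2, where it rested on 4 peaks. The median enzyme peak nevertheless had a smaller p than 81.0% and 92.0% of the METTL16 peaks, 71.4% and 79.4% of the eIF3a peaks, and 73.5% and 59.8% of the eIF3b peaks. Over all 98, the fold ran from 1.10 to 21.8 with a median of 1.91, was under 2 in 53 and was at least 4 in 14. Folds under 2 made up at most 27.3% of all peaks of any list. GAPDH was the plainest case, with folds in the lowest 2 percentiles of their lists and p-values stronger than 98.5%, 98.7% and 90.0% of the peaks.

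Another 6 peaks had high folds and weak p-values. They lay near the canonical transcript start of ENO1, ALDOA, HK2 and PKM, with under 50% of their bases on canonical exons. The ENO1 and PKM peaks lay on other annotated exons of those genes, at least in part. Of these, the PKM peak of eIF3a replicate 1 was downstream of the canonical start. The HK2 and ALDOA peaks were upstream and on no annotated exon of the gene. The folds of the 6 peaks ran from 3.33 to 17.8 and their p-values were stronger than 5.26% to 29.7% of their lists. Their GC content was 67.0% to 76.9%, against a median of 55.7% in the other 92 peaks. They set the highest fold of ENO1 in METTL16 replicate 2 (16.7, at chr1:8878972-8879062), of ALDOA in eIF3b replicate 1 (15.1, at chr16:30063832-30063952), of PKM in eIF3a replicate 1 (6.20) and in eIF3b replicate 1 (17.8), and of HK2 in eIF3a replicate 1 (5.46). On canonical exons the same values were 2.20, 1.10, 1.51, 1.66 and 3.08. The HK2 peaks of this kind in eIF3a replicate 1 and eIF3b replicate 1 overlapped an exon of HK2-DT, a transcript on the opposite strand.

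**Figure D4:**
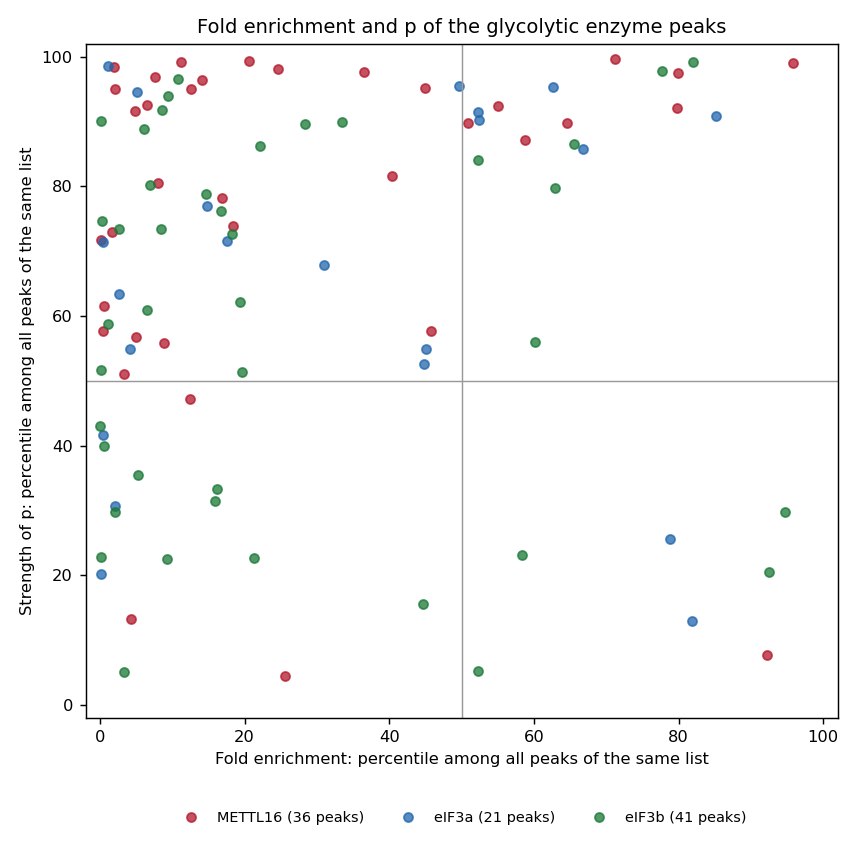
Each of the 98 enzyme peaks by the percentile of its fold enrichment (horizontal axis) and of the strength of its p-value (vertical axis) among all peaks of its own list, with grey lines at the list medians. Of the points, 55 lie in the upper left, at low fold and strong p, and 7 at the lower right, 6 of them the peaks near transcript starts with folds of 3.33 to 17.8.

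Peaks on the enzymes tended to be joined over splice junctions in the METTL16 lists. More than 1 exon block was present in 75.0% of the enzymes' peaks in both METTL16 lists, against 40.6% and 45.7% of all peaks in those lists. The shares were 29.4% and 0% for eIF3a, against 37.9% and 43.4%, and 52.2% and 33.3% for eIF3b, against 44.5% and 40.0%. The median exonic width of the enzymes' peaks was 195.5 and 314.5 bases for METTL16 against 180 and 180 over all peaks, 180 and 300 for eIF3a against 180 and 210, and 210 and 150.5 for eIF3b against 210 and 181. The widths ran from 61 to 2069 bases. Over the 10 enzymes, with 0 for those without a peak, the median percent of exon bases under peaks was 11.1 ± 8.99 (SD, n = 2) for METTL16, 1.26 ± 1.78 (SD, n = 2) for eIF3a and 4.07 ± 0.141 (SD, n = 2) for eIF3b, and the METTL16 replicates themselves differed, at 4.79 and 17.5.

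The proteins were next compared on each enzyme by covered bases, as given above, with a gene called separated when both lists of 1 protein exceeded both of the other. METTL16 exceeded eIF3a on 6 enzymes (PFKL, ALDOA, TPI1, PGK1, ENO1 and PKM), against 13.7% of the 10118 genes with a peak in any of the 4 lists. eIF3a exceeded METTL16 on GPI alone, against 23.4%. METTL16 exceeded eIF3b on 3 enzymes (TPI1, PGK1 and ENO1), against 5.26% of 10001 genes, and eIF3b exceeded METTL16 on GPI, against 39.0%. On canonical exons alone, METTL16 exceeded eIF3b on 5 enzymes, ALDOA and PKM being added, against 5.46% of 9949 genes, and the other 5 counts did not move. eIF3b exceeded eIF3a on HK2 and PFKL, against 22.8% of 10242 genes, and eIF3a exceeded eIF3b on GPI, against 6.48%. On the enzymes METTL16 was thus more often the higher protein, whereas over all genes it was more often the lower. Each separated enzyme had a p of 0.333 by the exact permutation test, two-sided, which is the smallest that 2 lists against 2 can give, so no difference on a single enzyme could pass a threshold. The 3 comparisons share lists. METTL16 exceeded eIF3a on 2 enzymes when peaks with a fold under 2 were dropped, and on 6 when eIF3a replicate 2 was left out. METTL16 exceeded eIF3b on 8 without METTL16 replicate 1 and on 6 without eIF3b replicate 1, and eIF3b exceeded eIF3a on 7 without eIF3b replicate 2 and on 4 without eIF3a replicate 1. Leaving out a list makes separation easier to meet by construction. The shares over all genes are not given for these settings, so the higher counts have no background beside them.

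On the enzymes that 2 lists shared, the median Jaccard index averaged 0.417 ± 0.108 (SD, n = 3) over the 3 within-protein pairs of lists and 0.311 ± 0.119 (SD, n = 12) over the 12 between-protein pairs, which differed by less than the spread. Over all shared genes the means were 0.329 ± 0.0862 (SD, n = 3) and 0.284 ± 0.0859 (SD, n = 12). The narrower peak was mostly contained in the wider, since the mean share of the shorter coverage that was shared was 0.863 within and 0.823 between proteins. The eIF3a pair within proteins rests on HK2 and GPI alone, as does every between-protein pair that includes eIF3a replicate 2. The pairs reuse the same lists, so they are not independent and the SD describes their spread only.

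By highest fold over the 6 lists, the genes most like HK2 among those with a peak in all lists were BCL2L2-PABPN1, ZNF692 and PHLPP1, with root mean square differences in log2 fold of 0.20, 0.20 and 0.26, computed with the upstream value of 5.46 in eIF3a replicate 1. Those most like GPI were AK4, CHP1 and PPARA, with differences of 0.29, 0.33 and 0.35.

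Another 51 genes of sugar metabolism were counted by role. METTL16 bound 22, eIF3a 10 and eIF3b 24, where the backgrounds were 22.9%, 22.8% and 32.2% of protein coding genes. The eIF3a share did not exceed its background. Of the 51, 8 had a peak in all 6 lists, namely the glucose transporter SLC2A1, the lactate exporter SLC16A3 and its chaperone BSG, the isozyme genes ENO2 and PKLR, the regulator GCKR, pyruvate carboxylase PC, and GFPT1, which opens the hexosamine branch. Over all genes, 2730 had a peak in all 6 lists, beside 20020 annotated protein coding genes and 10830 genes named in any list. The 8 are therefore named without being read as an excess. A further 12 had none, among them SLC2A2, HK3, PFKM, PGK2, LDHC, PDK1, PDK4, FBP1, FBP2 and PGM1. A peak in at least 1 list was present on 53.6% of protein coding genes. Of the 6 genes of sugar uptake and lactate export, METTL16 bound 4, eIF3a 3 and eIF3b 5. Of the 17 further isozyme genes the counts were 6, 3 and 5, and of the 12 control genes 3, 2 and 7. Of the 8 gluconeogenesis genes they were 3, 1 and 3, and of the 8 genes of side branches, the pentose phosphate path among them, 6, 1 and 4. The highest folds on SLC2A1 were 2.91 and 1.96 for METTL16, 22.3 and 1.59 for eIF3a, and 3.22 and 2.54 for eIF3b. The 22.3 was in eIF3a replicate 1 alone, and the position and p of its peak are not given here. PKLR, the liver and red cell pyruvate kinase gene, had 2.71 and 4.42 for METTL16, 4.13 and 2.49 for eIF3a, and 2.84 and 4.40 for eIF3b.

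The lists held 12921 to 21733 peaks, and the depth of the libraries is unknown. Of 7 hepatocyte lineage genes, METTL16 bound 5, eIF3a 1 and eIF3b 3, where the backgrounds were 22.9%, 22.8% and 32.2% of protein coding genes. Each of the 7 had a peak in at least 1 list, where 53.6% of protein coding genes did. As on the enzymes, METTL16 bound the most of these genes and eIF3a the fewest. The 7 genes were chosen with earlier results of these data known, so the counts are given without a test. Among genes of other lineages, COL1A1 and GFAP had none, PTPRC had a peak in METTL16 replicate 1 only, and HBB, a globin gene, had peaks in 4 lists with folds of 576 and 986 for METTL16, 1.47 for eIF3a replicate 1 and 1700 for eIF3b replicate 1. The part of RNA from other sources in the enzymes' peaks was not tested.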

How the data were processed

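The 6 RIP-seq peak lists, from 2 biological replicates for each protein, were analysed; the 6 inputs entered only through the authors' peak calling. Alignment by the authors was to GRCh38 with STAR, and exomePeak, run with its defaults, called the peaks. Versions, the annotation, strand handling and the pairing of inputs are not given in the sources used here. The authors deposited, per peak, a p-value, the gene name and the exonic blocks. The deposited log10 p was used as a score to rank peaks, and the deposited fold enrichment is a ratio of RIP to input. Read counts were not used here, so depth and its precision are unknown.

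Peaks were taken by the gene name column, checked by overlap on the same strand, and mapped to canonical transcripts of GENCODE release 44 with Python 3.11.15, pandas 2.3.3 and pysam 0.24.0. The stop codon was counted as coding. Of 10830 names, 10325 matched a current symbol and 443 an older one. Starts were counted from 0 in the files, as 99.7% to 99.8% of inner block starts then fell on exon starts. The caller's gene model omits the PKM M2 exon. Percentiles, shares and medians were computed within each list; covered bases were compared by an exact permutation test. Interval code was tested on simulated data. Alternatives were folds of at least 2 or 4, the 5000 strongest peaks per list, either replicate, canonical transcripts, peak centres, highest fold, a replicate block and leaving out each replicate.

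Named were all 10 enzymes, the other genes of the pathway with a peak in all lists or in none (a few genes and sequences that meet this rule are not reported here), and for HK2 and GPI the 3 genes nearest in highest fold; SLC2A1, PKLR and HBB are described after their values were seen. The enzymes and gene lists were chosen with earlier results of these data known.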

Additional observations from a re-analysis of the deposited data

How the results depend on the processing

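Of 110 alternative values for 17 results, 77 stayed within the replicate spread or 1.5 times the count, and 33 moved; where no construction of the setting shows the cause, the cause was not tested. Bound enzymes fell to 4 for METTL16 and 2 for eIF3b at a fold of at least 2, to 1, 0 and 1 for METTL16, eIF3a and eIF3b at a fold of at least 4, and to 2 for eIF3b with the 5000 strongest peaks per list. With a peak in either replicate, eIF3a bound 6 and eIF3b 9. Leaving out each replicate gave 8 to 9 for METTL16, 2 to 6 for eIF3a (6 without replicate 2) and 6 to 8 for eIF3b (8 without replicate 2). The median percent of exon bases under peaks was 20.8, 3.06 and 7.44 for METTL16, eIF3a and eIF3b on canonical transcripts, which hold fewer bases, and 1.73 and 0 for METTL16 and eIF3b at a fold of at least 2. Leaving out a replicate gave 4.79 to 17.5 for METTL16, 0 to 2.52 for eIF3a and 3.97 to 4.17 for eIF3b. The coding share of peak bases was 62.4% for METTL16 and 18.7% for eIF3b at a fold of at least 2, and 87.4%, 60.4% and 72.6% for METTL16, eIF3a and eIF3b without HK2 and GPI, an alternative chosen after seeing the data. Leaving out a replicate gave 70.9% to 79.3%, 0% to 20.6% and 26.4% to 54.1%. METTL16 exceeded eIF3a on 2 enzymes at a fold of at least 2 and on 6 to 7 with a replicate left out. It exceeded eIF3b on 5 by canonical bases, an alternative chosen after seeing the data, and with a replicate left out on 3 to 8, with 8 without METTL16 replicate 1 and 6 without eIF3b replicate 1. eIF3b exceeded METTL16 on 0 by highest fold and on 1 to 2 with a replicate left out (2 without METTL16 replicate 2), and eIF3a exceeded eIF3b on 1 to 2 (2 without eIF3a replicate 2). eIF3b exceeded eIF3a on 1 at a fold of at least 2, and on 2 to 7 with a replicate left out (4 without eIF3a replicate 1, 7 without eIF3b replicate 2). Separation is easier to meet by construction when a replicate is left out. With the replicate number as a block (replicate block), eIF3b exceeded eIF3a on 4 enzymes in place of 2, METTL16 exceeded eIF3a on 6, and no other count changed. The numbers are not said to pair the samples, and the differences between replicates 1 and 2 correlated at -0.0910, -0.205 and -0.0925 between the 3 pairs of proteins across 10830 genes, so the block is given only here. The Jaccard index is replaced by 0.863 within and 0.823 between proteins when the shared bases are divided by the shorter coverage, which is larger by construction. Leaving out a replicate gave 0.357 to 0.461 within and 0.283 to 0.371 between proteins. The lists hold no counts, so what depth limits cannot be stated.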
